A study of Mus musculus with 8 samples.

Results

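The ZIC transcription factors *Zic1*, *Zic2*, *Zic4* and *Zic5* were followed through neural differentiation of mouse embryonic stem cells (mESCs) with and without PCGF5. The members were chosen by gene symbol and not by a cut-off on measured values, though with earlier results of these data known. They make up 4 of the 24849 genes listed for each sample. RNA-seq was performed on 8 samples, 2 in each of 4 groups: wild type (WT) day 0, *Pcgf5*-/- day 0, WT day 6 and *Pcgf5*-/- day 6. PCGF5 is a subunit of Polycomb repressive complex 1, which ubiquitinates histone H2A, and the comparison asks how its loss alters gene expression while mESCs turn neural. All cells derive from the mESC line MPI-II, of 129S2/SvPas origin. At day 0 the cells grew on feeder fibroblasts with serum, LIF and the 2i inhibitors, and day 6 cells had spent 6 days in N2B27, a serum-free medium that lets mESCs become neural. The *Pcgf5*-/- cells were made by TALEN cutting in exon 2 with drug selection and picking of single colonies, and how many clones stand behind the samples is not given in the sources used here. The effects of the mutation and of picking clones cannot be told apart.

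ZIC proteins are zinc finger transcription factors related to the GLI and GLIS proteins and to odd-paired of the fly. They are known from the neural plate and the dorsal neural tube, where they act in neural plate specification, neural crest formation and cerebellar growth. *Zic2* is already active in pluripotent cells and its mutation causes holoprosencephaly, a failure of the forebrain to divide. *Zic1* and *Zic4* are known for their role in the cerebellum, and *Zic5* for neural tube closure and neural crest.

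The 4 genes lie as divergent pairs. In mm9 (NCBIM37) coordinates, as the files give them, *Zic1* lies on chromosome 9 from 91255182 to 91260637 on the minus strand and *Zic4* spans 91263809 to 91284186 on the plus strand, with 3172 bp between them. On chromosome 14, *Zic5* spans 122858381 to 122864880 on the minus strand and *Zic2* spans 122874605 to 122879550 on the plus strand, 9725 bp apart. An annotated *Zic4* transcript (GENCODE, same build) starts at 91257251, inside *Zic1* on the opposite strand. Whether strand was used in computing the values is not given in the sources used here, so reads in that overlap cannot be assigned with certainty.

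The promoters of the chromosome 9 pair are shown because these neighbours differ in both CpG content and expression. A link between CpG content and expression was not tested, and no promoter sequence was available for *Zic2*. Sequences are from RefSeq (table build GRCm38.p6) and each occurs once in NCBIM37 on its chromosome, at chr9:91260557-91260856 (minus strand) for *Zic1* and at chr9:91263560-91263859 (plus strand) for *Zic4*. They run 5′ to 3′ from 250 bases before to 50 bases after the start of the gene, with CpG dinucleotides in capitals.
Zic1: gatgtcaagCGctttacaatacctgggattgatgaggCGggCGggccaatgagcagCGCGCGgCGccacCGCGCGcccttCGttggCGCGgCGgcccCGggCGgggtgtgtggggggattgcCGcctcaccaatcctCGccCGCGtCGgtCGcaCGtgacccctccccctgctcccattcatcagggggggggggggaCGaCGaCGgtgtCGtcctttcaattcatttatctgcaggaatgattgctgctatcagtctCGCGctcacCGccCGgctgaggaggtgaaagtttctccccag
Zic4: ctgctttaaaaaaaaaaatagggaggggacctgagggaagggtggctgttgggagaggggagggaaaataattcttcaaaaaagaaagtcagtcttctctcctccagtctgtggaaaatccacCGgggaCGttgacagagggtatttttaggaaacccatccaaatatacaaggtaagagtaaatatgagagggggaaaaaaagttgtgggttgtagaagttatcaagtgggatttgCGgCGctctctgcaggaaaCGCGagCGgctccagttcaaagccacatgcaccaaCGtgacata
The *Zic1* window holds 31 CpG and the *Zic4* window 8, against a median of 7 in the 32851 promoters of the table, of which 10.6% hold 31 or more and 48.6% hold 8 or more. The *Zic5* promoter, at chr14:122864831-122865130 on the minus strand, holds 15 CpG. GC content is 65.3% for *Zic1*, 46.0% for *Zic4* and 62.7% for *Zic5*, with a median of 52.7% in all promoters. The letters CAGCAGG, searched on both strands, occur in none of these 3 windows and in 10.5% of all promoters, and GACCACCCA, a GLI-type motif, likewise occurs in none of the 3 and in 0.253% of all.

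Expression was deposited as FPKM, fragments scaled to transcript length and to the number of mapped fragments, so the number of fragments behind a value is unknown. Between 16919 and 17673 genes lay above 0 FPKM in a sample. *Pcgf5* itself was measured at 3.63 to 9.16 FPKM in the 4 WT samples and at 0.457 to 1.84 FPKM in the 4 *Pcgf5*-/- samples. The mESC marker *Pou5f1* averaged 353 and 345 FPKM in WT and *Pcgf5*-/- cells at day 0, and 65.0 and 241 FPKM at day 6. Summed FPKM of 12 neural plate and progenitor genes was 176 to 198 in the day 0 samples, 591 and 603 in WT day 6 and 314 and 320 in *Pcgf5*-/- day 6. Most of the day 0 sum was *Sox2*, which averaged 167 and 157 FPKM in WT and *Pcgf5*-/- day 0. At day 6 *Sox2* averaged 99.9 and 123 FPKM, so it ran against the sums in both comparisons. Summed FPKM of 12 feeder fibroblast genes was 204 to 645 at day 0 and 18.1 to 42.8 at day 6, and the part of feeder RNA in the day effects was not tested. The samples are bulk RNA, in which fewer expressing cells and less RNA per cell cannot be told apart.

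*Zic2* was the most abundant of the 4 genes in every sample, with 76.4% to 86.9% of their summed FPKM. Its level was 12.1 and 18.9 FPKM in WT day 0 and 11.6 and 18.9 FPKM in *Pcgf5*-/- day 0, and it was 28.2 and 32.6 FPKM in WT day 6 and 52.7 and 37.6 FPKM in *Pcgf5*-/- day 6 (replicates 1 and 2). Within each genotype both day 6 samples lay above both day 0 samples, an order shown by 49.5% of all tested genes in WT and 43.3% in *Pcgf5*-/- cells, and both *Pcgf5*-/- day 6 samples lay above both WT day 6 samples. Group means were 15.5 ± 4.76, 15.2 ± 5.17, 30.4 ± 3.13 and 45.2 ± 10.7 FPKM (SD, n = 2) in the same order, with the day 0 groups not separable.

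*Zic5*, the divergent partner of *Zic2*, was less abundant. Its level was 2.85 and 4.38 FPKM in WT day 0, 3.42 and 5.11 FPKM in *Pcgf5*-/- day 0, 3.63 and 2.93 FPKM in WT day 6 and 12.9 and 4.90 FPKM in *Pcgf5*-/- day 6. Replicate 1 of *Pcgf5*-/- day 6 stood above all other samples, while replicate 2 of that group lay within the range of the *Pcgf5*-/- day 0 samples. The means were 3.62 ± 1.08, 4.27 ± 1.20, 3.28 ± 0.495 and 8.89 ± 5.64 FPKM (SD, n = 2), and the first 3 of these groups overlap each other.

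*Zic1* was lowest in mESCs and highest in WT cells at day 6. Its level was 0.274 and 0.178 FPKM in WT day 0 and 0.151 and 0.395 FPKM in *Pcgf5*-/- day 0, and then 2.39 and 4.63 FPKM in WT day 6 against 1.07 and 0.724 FPKM in *Pcgf5*-/- day 6. Both mutant day 6 samples lay between the day 0 samples and the WT day 6 samples. Their means were 0.226 ± 0.0678, 0.273 ± 0.172, 3.51 ± 1.58 and 0.897 ± 0.245 FPKM (SD, n = 2). The confidence limits that Cufflinks gives with each value were 1.97 to 2.81 and 3.93 to 5.31 FPKM in the WT day 6 samples and 0.797 to 1.33 and 0.484 to 0.948 FPKM in the *Pcgf5*-/- day 6 samples. These limits cover uncertainty within a sample and not the spread between samples, and 6.35% to 7.79% of genes above 0 had an FPKM above their own upper limit.

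*Zic4*, the divergent partner of *Zic1*, was not above 0.0596 FPKM in any sample and was listed at 0 in replicate 1 of *Pcgf5*-/- day 0. The lower confidence limit was 0 in 7 of 8 samples and the highest upper limit was 0.114 FPKM. Its values were 0.0428 and 0.0289 FPKM in WT day 0, 0.0480 FPKM in the other *Pcgf5*-/- day 0 sample, 0.0266 and 0.0596 FPKM in WT day 6, and 0.0427 and 0.0346 FPKM in *Pcgf5*-/- day 6. *Zic4* therefore stayed below the minimum for testing, a mean above 1 FPKM in at least 1 group, which 13214 genes passed. *Zic1* passed this minimum only through WT day 6, the group in which it was highest, so counts of members called are given as a description. Its tests were therefore also read from a fit with no minimum. Where *Zic4* was above 0, the log2 ratio of *Zic1* to *Zic4* was 2.62 to 6.49.

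**Figure D1:**
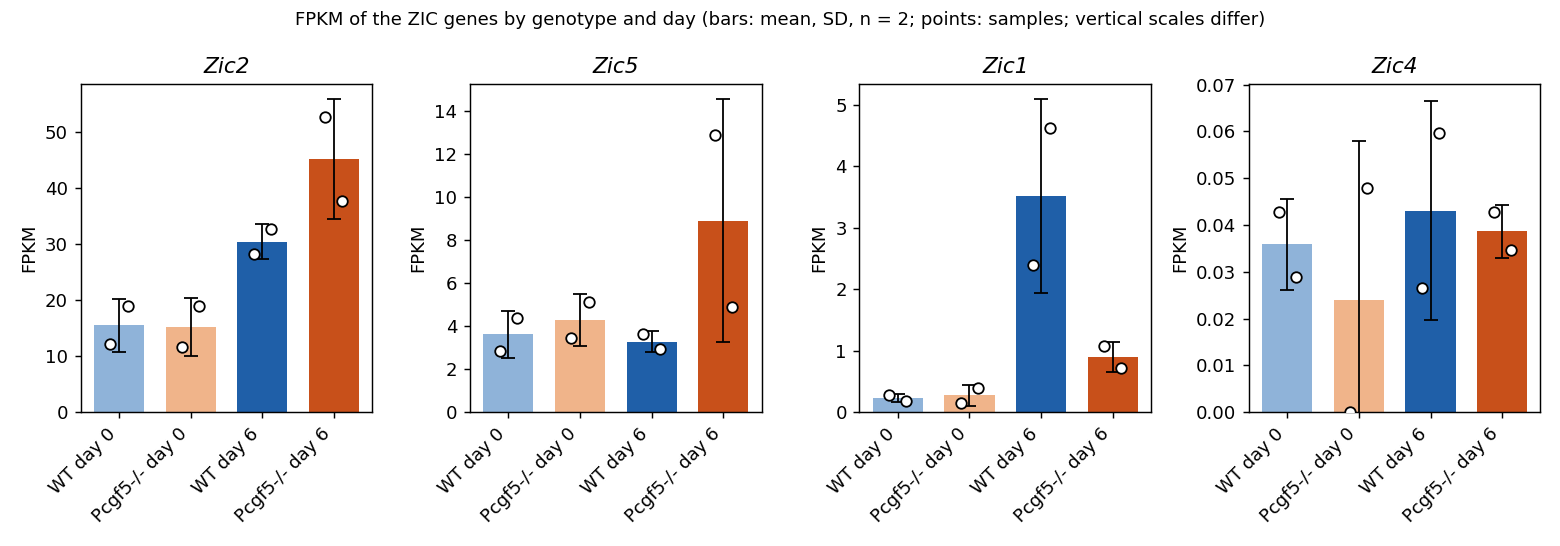
FPKM of the 4 ZIC genes in each sample (y axis, linear, own scale for each gene) by group (x axis), with bars for the mean of 2 samples, error bars for the SD and points for samples. *Zic1* reaches 4.63 FPKM in WT day 6 and stays at or below 1.07 FPKM in *Pcgf5*-/- day 6, *Zic2* is highest in *Pcgf5*-/- day 6, and *Zic4* stays at or below 0.0596 FPKM.

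To compare the days, limma was fitted to log2(FPKM + 1) of all tested genes, so that a fold change is on that scale and understates the ratio for weakly expressed genes. In WT cells, *Zic1* and *Zic2* rose from day 0 to day 6 and *Zic5* did not pass the test, so 2 of 3 tested members rose, while 34.2% of all tested genes rose and 50.5% changed in either direction. *Zic1* rose by 1.83 (SE 0.26, adjusted p = 0.000706), with a 15.5-fold higher mean FPKM. With no minimum on FPKM its adjusted p was 0.00370, and the test was passed under all 18 alternatives. *Zic2* rose by 0.96 (SE 0.28, adjusted p = 0.0213), with a 1.96-fold higher mean. The *Zic5* difference was -0.09 (95% interval -0.98 to 0.79, adjusted p = 0.854) and its samples overlapped. The call for *Zic2* was lost without WT day 0 replicate 1 (0.66, adjusted p = 0.133), WT day 6 replicate 1 (1.06, adjusted p = 0.0505) or WT day 6 replicate 2 (0.85, adjusted p = 0.106), with samples centred on their median (0.59, adjusted p = 0.0900) and with no minimum on FPKM (adjusted p = 0.0574).

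In *Pcgf5*-/- cells, *Zic2* alone of the 3 tested members rose, against 21.9% of all tested genes that rose and 32.3% that changed in either direction. The difference was 1.53 (SE 0.28, adjusted p = 0.00521), with a 2.97-fold higher mean at day 6, and the test was passed under all 19 alternatives. *Zic1* differed by 0.58 (95% interval -0.02 to 1.17, adjusted p = 0.124), with a 3.29-fold higher mean and both day 6 samples above both day 0 samples. *Zic5* differed by 0.80 (95% interval -0.09 to 1.69, adjusted p = 0.148), and its days overlapped. Without *Pcgf5*-/- day 6 replicate 2 the *Zic5* difference was 1.42 (adjusted p = 0.0260), and *Zic1* passed the test without WT day 6 replicate 2, a sample that enters here only through the shared estimate of spread (adjusted p = 0.0488).

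**Figure D2:**
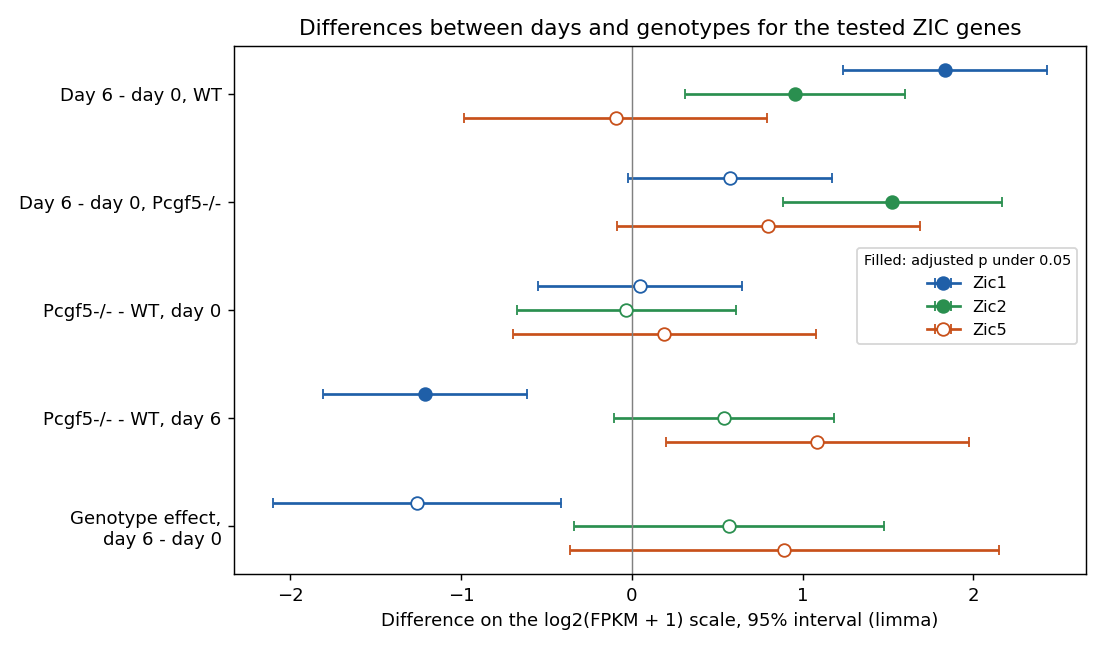
Differences of *Zic1*, *Zic2* and *Zic5* between days and genotypes on the log2(FPKM + 1) scale (x axis), with unadjusted 95% intervals from limma and filled points for an adjusted p under 0.05. The *Zic1* difference between genotypes is -1.21 at day 6 and 0.05 at day 0 (-0.057 at day 0 under quantile normalization), and the *Zic2* and *Zic5* points lie to the other side of 0 at day 6.

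At day 0, none of the 3 tested members differed between genotypes in limma, at an adjusted or an unadjusted p under 0.05, against 0.333% and 17.4% of all tested genes. *Zic1* differed by 0.05 (95% interval -0.55 to 0.64), *Zic2* by -0.03 (-0.67 to 0.61) and *Zic5* by 0.19 (-0.70 to 1.08), and the samples overlapped in each case. The signs of these small differences changed when single samples were left out, and that of *Zic1* also with quantile normalization (-0.057) and median centring (-0.097). Differences inside these intervals could not be resolved with 2 samples per group.

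At day 6, *Zic1* was lower in *Pcgf5*-/- cells and *Zic2* and *Zic5* did not pass the test, with 1 of 3 tested members past the test against 16.6% of all tested genes (9.57% higher, 7.05% lower). *Zic1* fell by 1.21 on the log2(FPKM + 1) scale relative to WT (SE 0.26, adjusted p = 0.0197, and 0.0457 with no minimum on FPKM), a mean 3.91-fold lower. *Zic2* differed by 0.54 (95% interval -0.10 to 1.18, adjusted p = 0.222) and *Zic5* by 1.09 (95% interval 0.20 to 1.97, unadjusted p = 0.0224 and adjusted p = 0.0906 in limma). The mean FPKM in *Pcgf5*-/- cells was 1.49-fold that of WT for *Zic2* and 2.71-fold for *Zic5*. Both mutant samples lay above both WT samples for *Zic2* and *Zic5* and below them for *Zic1*, an order that 33.4% of all tested genes show upwards and 28.8% downwards. These shares include chromosomes with shifted medians. The median genotype difference at day 0 and day 6 was 0.48 and 0.38 on chromosome 11 and 0.41 and 0.37 on chromosome 6. It was 0.05 and -0.03 on chromosome 9 and 0.07 and -0.03 on chromosome 14. The cause of these shifts was not tested.

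The lower *Zic1* level at day 6 kept its direction under all 18 alternatives, from -1.91 to -0.84, and passed the test in 13. The test was missed without *Pcgf5*-/- replicate 1 (-1.34, adjusted p = 0.0712), without *Pcgf5*-/- replicate 2 (-1.08, adjusted p = 0.0898) and without WT replicate 2, the WT sample of higher *Zic1* (-0.84, adjusted p = 0.0780). It was also missed with a pseudocount of 0.01 (-1.91, adjusted p = 0.0799) and in a fit of the compared groups alone (adjusted p = 0.0534). For *Zic5*, the difference was 0.47 without *Pcgf5*-/- replicate 1 (adjusted p = 0.400) and 1.70 without *Pcgf5*-/- replicate 2 (adjusted p = 0.0334), so 1 sample decides its size. Summed FPKM of 13 naive pluripotency genes was higher in the *Pcgf5*-/- samples, where *Zic1* was lower. It was 156 and 73.2 in WT replicates 1 and 2, where *Zic1* was 2.39 and 4.63 FPKM, and 514 and 474 in *Pcgf5*-/- replicates 1 and 2, where *Zic1* was 1.07 and 0.724 FPKM. Replicate 1 thus had the higher sum in both genotypes, with the lower *Zic1* level in WT and the higher one in *Pcgf5*-/-. The part of cell composition in the *Zic1* difference was not tested.

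The genotype effect was compared between the days by the interaction in the same fit, in which 3.09% of all tested genes passed. None of the 3 members passed after adjustment, and 1 had an unadjusted p under 0.05, against 23.2% of all tested genes. The *Zic1* effect at day 6 minus that at day 0 was -1.26 (95% interval -2.10 to -0.41, unadjusted p = 0.00872 and adjusted p = 0.0979 in limma). For *Zic2* it was 0.57 (-0.34 to 1.48) and for *Zic5* 0.89 (-0.36 to 2.15). Without WT day 6 replicate 1, the *Zic1* value was -1.62 (adjusted p = 0.0414).

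A ratio within a sample does not depend on scaling between samples. The log2 ratio of *Zic2* to *Zic1* was 5.47 and 6.73 in WT day 0 and 6.26 and 5.58 in *Pcgf5*-/- day 0. At day 6 it was 3.56 and 2.82 in WT and 5.62 and 5.70 in *Pcgf5*-/-, so that the mutant samples stayed within the range of day 0 and the WT samples lay below it. The day 0 range rests on *Zic1* values of 0.151 to 0.395 FPKM and is uncertain. In *Pcgf5*-/- cells the means of both genes were higher at day 6, 3.29-fold for *Zic1* and 2.97-fold for *Zic2*. On average *Zic2* was 9.12-fold above *Zic1* in WT day 6 and 50.6-fold above it in *Pcgf5*-/- day 6. That difference of 2.47 in log2 ratio had an exact permutation p of 0.333 (two-sided), the smallest that 2 samples against 2 allow.

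The log2 ratio of *Zic2* to its partner *Zic5* was 2.09 and 2.11 in WT day 0, 1.76 and 1.88 in *Pcgf5*-/- day 0, 2.96 and 3.48 in WT day 6, and 2.03 and 2.94 in *Pcgf5*-/- day 6. At both days the *Pcgf5*-/- samples lay below the WT samples, by 0.28 at day 0 and 0.73 at day 6 on average (exact permutation p = 0.333 in both). Across the 8 samples, Pearson's r of log2(FPKM + 1) was 0.65 between *Zic2* and *Zic5*, 0.59 between *Zic1* and *Zic2* and -0.10 between *Zic1* and *Zic5*, over samples that share the day effect. Replicate 1 of *Pcgf5*-/- day 6, where *Zic5* stood above all other samples, weighs heavily in the values with *Zic5*.

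**Figure D3:**
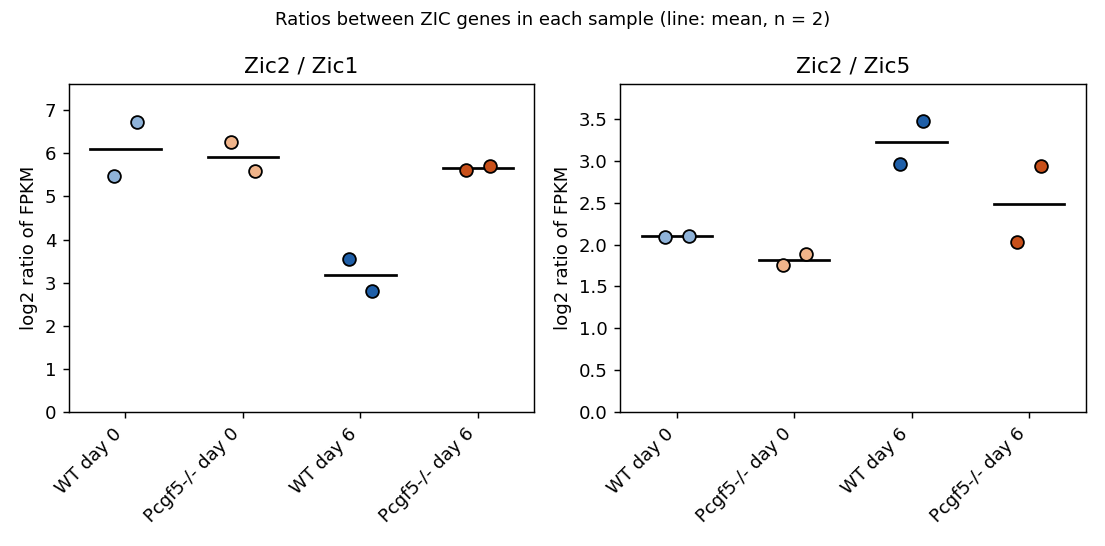
log2 ratios of FPKM of *Zic2* to *Zic1* and of *Zic2* to *Zic5* (y axes) in each sample by group (x axis), with a line for the mean of 2 samples. The *Zic2* to *Zic1* ratio is 3.56 and 2.82 in WT day 6 and at least 5.47 in the other 6 samples.

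The nearest tested genes to each pair were read from the same fit. Around *Zic1* and *Zic4*, the 3 nearest tested genes on either side (*Morf4l1*, *Adamts7*, *Tbc1d2b*, *Plscr1*, *Plod2* and *1190002N15Rik*) begin 861 to 3134 kb away. Their genotype differences at day 6 were -0.54 to 0.07, with 0 of 6 past the adjusted test in limma and 1 with an unadjusted p under 0.05, against 32.7% of all tested genes. Around *Zic5* and *Zic2*, 3 of 6 were higher in *Pcgf5*-/- cells at day 6, against 9.57% of all tested genes.
*Clybl*, a mitochondrial enzyme gene 56.9 kb away, averaged 11.8 FPKM in WT and 21.1 FPKM in *Pcgf5*-/- cells (0.80, adjusted p = 0.0475). *Ggact*, at 411 kb, averaged 5.80 and 11.3 FPKM (0.84, adjusted p = 0.0302), and *Timm8a2*, at 421 kb, 0.364 and 2.48 FPKM (1.35, adjusted p = 0.0127). *Timm8a2* is a close copy of *Timm8a1*, so its reads may be shared and its values are uncertain. *Pcca*, the nearest at 54.0 kb, differed by -0.02, *Tm9sf2* by 0.02 and *Tmtc4* by -0.45 (adjusted p = 0.147).

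For every member the genes of the most similar pattern over the 8 samples were found by Pearson's r of log2(FPKM + 1). For *Zic1* these were *Ikzf4* (0.996), *Trabd2b* (0.994) and *Sox6* (0.994), and 7.48% of tested genes had an r above 0.9. Like *Zic1*, these genes passed the FPKM minimum only through WT day 6 (means of 1.34, 1.72 and 1.32 FPKM). Their likeness to *Zic1* is therefore not independent of that minimum. For *Zic2* they were *Ncoa7* (0.991), *Slx4* (0.990) and *Brpf3* (0.989), with 3.42% above 0.9. *Zic5* had *Ccno* (0.973), *Robo4* (0.967) and *Fbxo42* (0.958), with 0.227% above 0.9. Its level was 12.9 FPKM in *Pcgf5*-/- day 6 replicate 1 and 2.85 to 5.11 FPKM in all other samples. Values of r with *Zic5* therefore depend strongly on that sample. *Ccno* passed the minimum only through *Pcgf5*-/- day 6 (mean of 1.98 FPKM), the group in which *Zic5* was highest on average. Among the gene lists described next, the median r with *Zic1* was 0.91 for GLI and GLIS genes, 0.88 for neural plate and progenitor genes, 0.46 for formative and -0.94 for naive pluripotency genes. With *Zic2* it was 0.68, 0.78, 0.86 and -0.62 for the same lists. These values describe 8 samples that share day and genotype.

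Genes with related zinc fingers were set beside the ZIC genes. Counts of list genes called at day 6 are to be read against 9.57% of all tested genes higher, 7.05% lower and 32.7% at an unadjusted p under 0.05. Of the 6 GLI and GLIS genes 5 were tested, *Glis1* being below the minimum. *Gli3*, which transmits and restrains Hedgehog signals and patterns the dorsal neural tube, was 3.09 and 3.55 FPKM on average in WT and *Pcgf5*-/- day 0 cells, 23.9 and 27.2 FPKM in the WT day 6 samples and 8.78 and 10.4 FPKM in the *Pcgf5*-/- day 6 samples. Like *Zic1*, it was lower in *Pcgf5*-/- cells at day 6 (-1.33, adjusted p = 0.00643), and here the difference between the days also passed the test (-1.47, adjusted p = 0.0340). *Gli1* (-0.21), *Gli2* (-0.13), *Glis2* (-0.34) and *Glis3* (-0.54) did not pass at day 6. In WT cells *Gli3* (2.70), *Glis2* (0.89) and *Glis3* (1.00) rose over the 6 days, and in *Pcgf5*-/- cells *Gli3* (1.22) did.

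Of 13 genes of holoprosencephaly, the condition linked to *Zic2*, 10 were tested, *Gli2* among them. At day 6, 4 were higher and 2 lower in *Pcgf5*-/- cells, with a list median of 0.13 beside 0.02 for all tested genes. The higher ones were *Tdgf1* (2.44), a co-receptor of Nodal, *Nodal* itself (1.70), *Foxh1* (1.46), a transcription factor of the Nodal pathway, and *Tgif1* (0.88), a repressor in it. *Gas1* (-1.57), a Hedgehog co-receptor, and *Dll1* (-1.39), a Notch ligand, were lower. *Shh* and *Six3* stayed below the minimum. *Nodal* averaged 5.19 FPKM in WT day 6 and 18.6 FPKM in *Pcgf5*-/- day 6, and *Dll1* averaged 21.6 and 7.58 FPKM.

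Of 13 dorsal neural tube and neural plate border genes, the domain in which ZIC genes are best known, 9 were tested and 3 were lower in *Pcgf5*-/- cells at day 6 (7.05% of all tested genes), with a list median of -0.40. *Pax3* (-2.54) and *Pax7* (-1.43), paired-box factors of the dorsal neural tube, and *Msx2* (-0.91), a target of BMP signals, were those 3. After adjustment 0 were higher (limma, with 4 at an unadjusted p under 0.05 in either direction, against 32.7% of all tested genes). The remaining gene of those 4 was *Foxd3*, which had a positive difference (0.99, adjusted p = 0.137 in limma). *Msx1* (-0.40), whose value is the list median, and *Wnt1* (-0.64) passed the FPKM minimum only through WT day 6. Their means in that group were 1.27 and 1.76 FPKM. Their negative differences, and so the list median, are therefore not independent of that minimum. *Pax3* averaged 13.0 FPKM in WT day 6 and 1.38 FPKM in *Pcgf5*-/- day 6. Of the 11 tested neural plate and progenitor genes 9 were lower, with a median of -1.32, led by *Pou3f2* (-2.07), *Fabp7* (-1.67) and *Hes5* (-1.64).

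Of the 13 naive pluripotency genes, 12 were higher in *Pcgf5*-/- cells at day 6, with a median of 1.91, led by *Dppa3* (2.51), *Esrrb* (2.40) and *Nr0b1* (2.18). Of the 8 formative genes, which mark the step after the naive state in which *Zic2* is also active, *Lef1* (1.48) was higher and *Sall2* (-0.84) lower, with a median of 0.87. Over the 6 days 8 of 8 formative genes rose in *Pcgf5*-/- cells (median 2.41, with 21.9% of all tested genes rising) and 4 of 8 in WT cells (median 1.58, with 34.2%), while *Zic2* rose in both. The difference between these counts was not tested. For single genes the interaction compares the same rises, and 1 of the 8 passed it, *Otx2*, upwards (3.09% of all tested genes passed). *Otx2* averaged 11.8 and 3.94 FPKM in WT and *Pcgf5*-/- day 0, and 9.45 and 26.0 FPKM at day 6. Its larger rise in *Pcgf5*-/- cells thus includes a lower mean at day 0. Among markers of other cells, 0 of 5 tested mesoderm genes passed the test at day 6 (median -0.06, limma). The 2 at an unadjusted p under 0.05 were *Meox1* (0.91, adjusted p = 0.0564) and *Eomes* (1.09, adjusted p = 0.0711), both with positive differences. The r of *Meox1* with *Zic5* was 0.84, the highest of the 5 tested mesoderm genes, whose median r with *Zic5* was 0.24. These values also depend strongly on *Pcgf5*-/- day 6 replicate 1, the sample of highest *Zic5*. *Meox1* passed the FPKM minimum only through *Pcgf5*-/- day 6 (mean of 1.89 FPKM), where *Zic5* was also highest on average. In addition, 1 of 12 feeder genes was lower, *S100a4* (-1.12), with a median of -0.58. The part of these cell types in the ZIC differences was not tested.

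**Figure D4:**
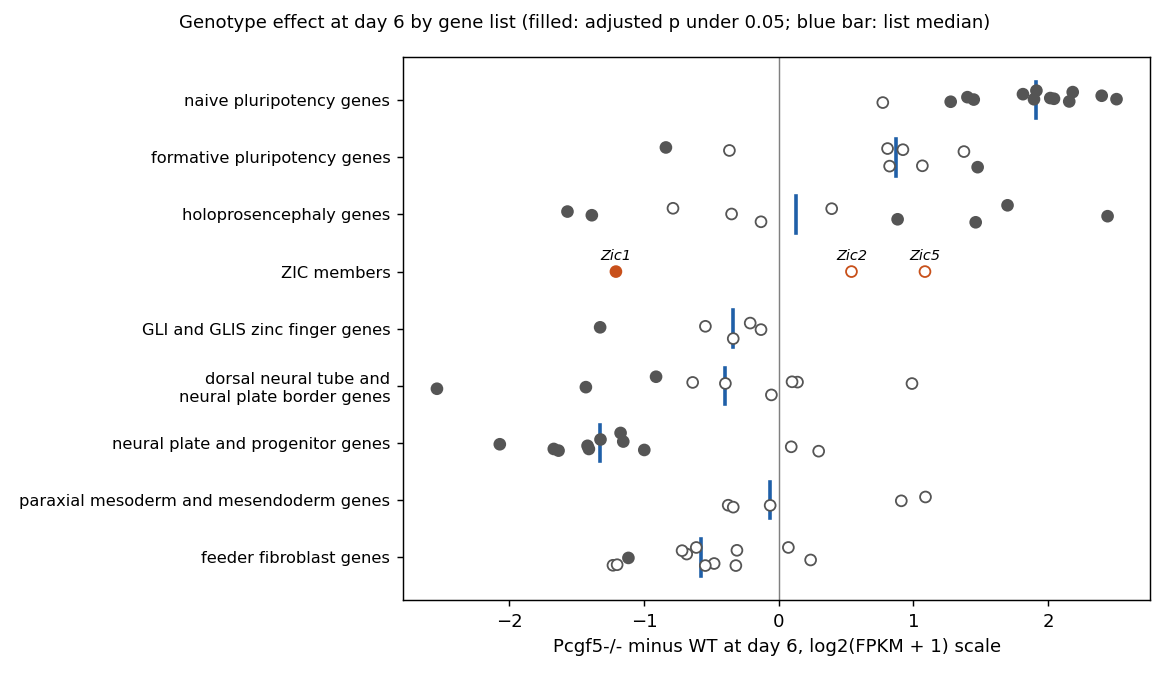
Difference between *Pcgf5*-/- and WT cells at day 6 on the log2(FPKM + 1) scale (x axis) for each tested gene of each list (rows), with filled points for an adjusted p under 0.05 and blue bars for list medians. *Zic1* lies at -1.21 and the median of the neural plate and progenitor genes at -1.32, while *Zic2* and *Zic5* lie at 0.54 and 1.09 without passing the test. The scale understates ratios of weakly expressed genes, and *Zic1* lay at -1.91 with a pseudocount of 0.01, so its distance from list medians depends on the scale.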

How the data were processed

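RNA-seq was performed on 8 samples, and the groups and replicate numbers were taken from the sample labels. Reads were aligned to mm9 with TopHat2 2.0.4 and the authors computed the deposited FPKM values and their confidence limits with Cufflinks 2.1.1, per the labels and the submitters' processing notes. The deposited FPKM values are scaled for library size and gene length, which hides the depth of each sample. Identical reads had been removed, which lowers abundant transcripts. The replicates are called biological. The limma p-values set a difference against the spread between samples, pooled over all 4 groups and moderated over all tested genes.

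FPKM values were analysed as log2(FPKM + 1) with limma 3.58.1 in R 4.3.3, in 1 fit of all 8 samples with a mean for each group and a variance trend, over genes with a mean above 1 FPKM in at least 1 group. The Benjamini-Hochberg adjustment was made over all genes tested, with a threshold of 0.05. The fit was tested on simulated data. Ratios were compared by an exact permutation test. Tables were handled with Python 3.11.15 and pandas 2.3.3.

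The members and gene lists were chosen with earlier results of these data known. The genes named were all members, GLI and GLIS genes, the 3 nearest tested genes on each side of each pair, the 3 genes most like each member, *Pcgf5*, up to 3 list genes of largest change each way, and any gene of a count of 5 or fewer. *Shh*, *Six3*, *Msx1*, *Wnt1*, *Sox2* and the mean level of *Pou5f1* were given beside them. Alternatives were other pseudocounts and FPKM minimums, quantile normalization, centring on the median, a replicate block, the compared groups alone, no variance trend and leaving out each sample.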

Additional observations from a re-analysis of the deposited data

How the results depend on the processing

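Of 277 values of member differences under alternatives, 251 kept their direction and their side of the threshold, 10 lost the call, 6 gained it and 10 changed sign, the latter only for differences that had not passed the test. The number of members past the test for genotype at day 6 was 1, and it was 0 with a pseudocount of 0.01, 0 with a minimum of 5 FPKM, where *Zic1* was not tested, 0 in a fit of the compared groups alone, and 0 to 1 with single samples left out. For the days in WT it was 2, and it was 1 with no minimum, 1 with a minimum of 5 FPKM and 1 with median centring, and 1 to 2 with single samples left out. For the days in *Pcgf5*-/- it was 1, and 1 to 2 with single samples left out. For the difference between the days it was 0, and 0 to 1 with single samples left out. The genotype difference of *Zic1* at day 0 was -0.057 with quantile normalization and -0.097 with median centring. With single samples left out, differences at day 0 ranged from -0.090 to 0.19 for *Zic1*, -0.36 to 0.30 for *Zic2* and -0.050 to 0.43 for *Zic5*, and the *Zic5* difference between days in WT from -0.34 to 0.15. The cause of these changes was not tested.

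Median centring, chosen after seeing the data, moved the median of all genes by -0.36 for the days in WT, -0.18 for the days in *Pcgf5*-/-, -0.15 for genotype at day 0 and 0.18 for the difference between the days, and quantile normalization moved it by -0.21, -0.10 and -0.12 for the first 3. The labels do not say that replicate numbers mark a shared batch, and deviations of same-numbered samples correlated at 0.39 between genotypes at day 6, 0.10 at day 0 and -0.08 to -0.02 across days. With a replicate block no member changed its call, and the number of all genes past the test went from 2197 to 2410 for genotype at day 6 and from 44 to 1 at day 0. With a replicate block for each day, chosen after seeing the data, 2 members passed for genotype at day 6, *Zic5* being added (adjusted p = 0.0305 in limma), and 2 passed for the days in *Pcgf5*-/-, *Zic5* again being added (adjusted p = 0.0486). Under that block the share of all genes called also went from 16.6% to 24.5% and from 32.3% to 41.9%. With 2 samples per group and no fragment counts, differences as small as those at day 0 could not be resolved.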
